A study of Mus musculus with 40 samples.

Results

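The Hippo pathway and its effectors were followed through 10 genes in mouse embryonic stem cells (mESCs) that lacked Cyclin C or CDK8: *Yap1*, *Wwtr1*, *Tead1*, *Tead2*, *Tead4*, *Amot*, *Amotl2*, *Lats2*, *Ajuba* and *Ankrd1*. They were picked by name from the 55536 genes counted, with the differences between knockout and WT cells already known, so that contrast is given for them as a description, without p-values. All 10 were found by their Ensembl identifiers, and all 10 passed the filter on low counts in both sets of libraries. *Lats2* and *Ankrd1* were the members with few counts. The further gene lists used below were also chosen with earlier results of these data known. Their genotype p-values and calls are descriptions, not independent support.

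RNA-seq was performed on WT mESCs in 2 biological replicates and on 3 clones of each knockout. The clones without Cyclin C were named D1, G2 and H5, and those edited in *Cdk8* were named B9, H4 and C8. Each replicate and clone gave a pair of libraries, after 4 h with DMSO or with 900 nM AZD6738, an inhibitor of the checkpoint kinase ATR (ATRi). All cells were grown on gelatin in serum with leukaemia inhibitory factor. Each knockout clone came from a single CRISPR-edited cell, so a difference of 1 clone from its sister clones cannot be told apart from clonal variation. The knockout libraries were sequenced in 2 multiplexes, each together with the same 4 WT libraries, which means that the comparisons for *Ccnc* KO and *Cdk8* KO share their controls. The ATRi library of the second WT replicate was left out of the tests, as the study also did, and its values are shown with the others.

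With WT libraries counted once per multiplex, the 20 libraries held 30899823 to 67274049 counted reads each. *Ccnc* itself fell in *Ccnc* KO cells by 2.93 on the log2 scale (SE 0.13, edgeR quasi-likelihood adjusted p = 1.14e-08). *Cdk8* fell in *Cdk8* KO cells by 0.35 (SE 0.06, edgeR adjusted p = 0.0112), and 52.3 to 64.5 CPM (counts scaled to library size, per 1e6 reads) remained in those clones. WT replicate 2 under ATRi, left out of the test, had 57.65 CPM, within that range. Transcript counts do not measure CDK8 protein. The paper reports that its knockout clones were checked by western blot and by genotyping. The pluripotency genes *Pou5f1*, *Sox2*, *Nanog*, *Zfp42*, *Esrrb* and *Klf4* summed to 3463 to 3789 CPM in WT libraries, 2984 to 3365 in *Ccnc* KO libraries and 2503 to 3289 in *Cdk8* KO libraries. Of these genes, 3 of 6 were called lower in *Ccnc* KO (*Zfp42*, *Esrrb* and *Klf4*) and 1 of 6 in *Cdk8* KO (*Sox2*). Over all genes tested, 5.28% and 2.03% were called lower. The 2 libraries of H4 held the lowest sums, 2503 and 2604 CPM. H4 stood apart in several results below.

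The Hippo pathway is a kinase cascade that reads cell contact, polarity and tension. LATS1 and LATS2 phosphorylate the coactivators YAP (*Yap1*) and TAZ (*Wwtr1*), which then stay in the cytoplasm. Unphosphorylated YAP and TAZ enter the nucleus and bind the TEAD proteins, which contact DNA and switch on targets such as *Ccn1*, *Ccn2* and *Ankrd1*. Angiomotins (*Amot*, *Amotl2*) are junction scaffolds that hold YAP and help LATS, whereas the LIM protein Ajuba restrains LATS. In the early mouse embryo TEAD4 with YAP turns on trophectoderm genes in outer cells, and angiomotin with LATS prevents this in the inner cells from which mESCs derive. YAP activity is regulated mostly through the protein, so transcript levels of *Yap1* itself do not measure it.

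The DNA letters that TEAD proteins recognise were searched before the RefSeq start sites, to show what the members carry there. The motif GGAATG, with its reverse complement CATTCC, was looked for in the 250 bases before the RefSeq transcription start on build GRCm38.p6. RefSeq windows were at hand for 8 of the 10 members (10 windows), and *Tead1* and *Tead4* were not analysed here. Of these 8 members, 5 held the motif at 7 places in all, and *Amot*, *Tead2* and *Lats2* did not hold it in these windows. For comparison, 12.6% of all 32851 RefSeq windows of this length held at least 1 copy and 1.02% held 2 or more. *Ankrd1* and *Ajuba* each had 2 copies. A match is a description of the letters, not a binding site. The windows of *Ankrd1*, *Amotl2*, *Amot* and *Tead2* overlapped an annotated exon of the same gene, as did the proximal window of *Wwtr1*. The printed *Ankrd1* and *Amotl2* sites lie inside the annotated gene, so for some transcripts these bases may be transcribed and not promoter. The sites are printed 5′ to 3′ on the strand of the gene, 30 bases each, with the motif in capitals, and *Ccn1*, a classical YAP target, is added for comparison.

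Ankrd1, 210 bases upstream, chr19:36120037-36120066, minus strand: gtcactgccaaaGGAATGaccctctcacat
Ankrd1, 123 bases upstream, chr19:36119950-36119979, minus strand: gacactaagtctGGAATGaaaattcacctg
Amotl2, 65 bases upstream, chr9:102717727-102717756, plus strand: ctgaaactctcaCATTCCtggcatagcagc
Ajuba, 186 bases upstream, chr14:54577830-54577859, minus strand: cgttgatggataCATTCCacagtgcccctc
Ajuba, 164 bases upstream, chr14:54577808-54577837, minus strand: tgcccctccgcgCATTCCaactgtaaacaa
Wwtr1, 136 bases upstream of the distal start, chr3:57576029-57576058, minus strand: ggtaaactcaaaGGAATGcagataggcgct
Yap1, 141 bases upstream, chr9:8004720-8004749, minus strand: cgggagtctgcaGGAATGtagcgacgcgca
Ccn1, 103 bases upstream, chr3:145650071-145650100, minus strand: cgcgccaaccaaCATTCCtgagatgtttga

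Levels of different genes can be set side by side only per length of transcript, so CPM were divided by the kilobases of merged exons. In WT cells under DMSO, in the *Ccnc* multiplex, *Ajuba* was the most abundant member at 70.6 CPM per kb. *Tead2* (24.8 CPM per kb) and *Yap1* (24.1 CPM per kb) followed, and their order was the other way round in the *Cdk8* multiplex (23.7 and 24.4 CPM per kb). Below them lay *Tead1* (10.2 CPM per kb), *Amotl2* (8.31 CPM per kb), *Tead4* (5.54 CPM per kb) and *Wwtr1* (5.12 CPM per kb). *Tead4* and *Wwtr1* overlapped between the WT replicates of the *Cdk8* multiplex and so had no fixed order. *Amot* (0.602 CPM per kb) and *Lats2* (0.171 CPM per kb) were low, and *Ankrd1* (0.0290 CPM per kb) was close to silent in WT cells. Among the pair of coactivators *Yap1* therefore exceeded *Wwtr1*, and among the TEAD genes *Tead2* exceeded *Tead1* and *Tead4*.

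**Figure D1:**
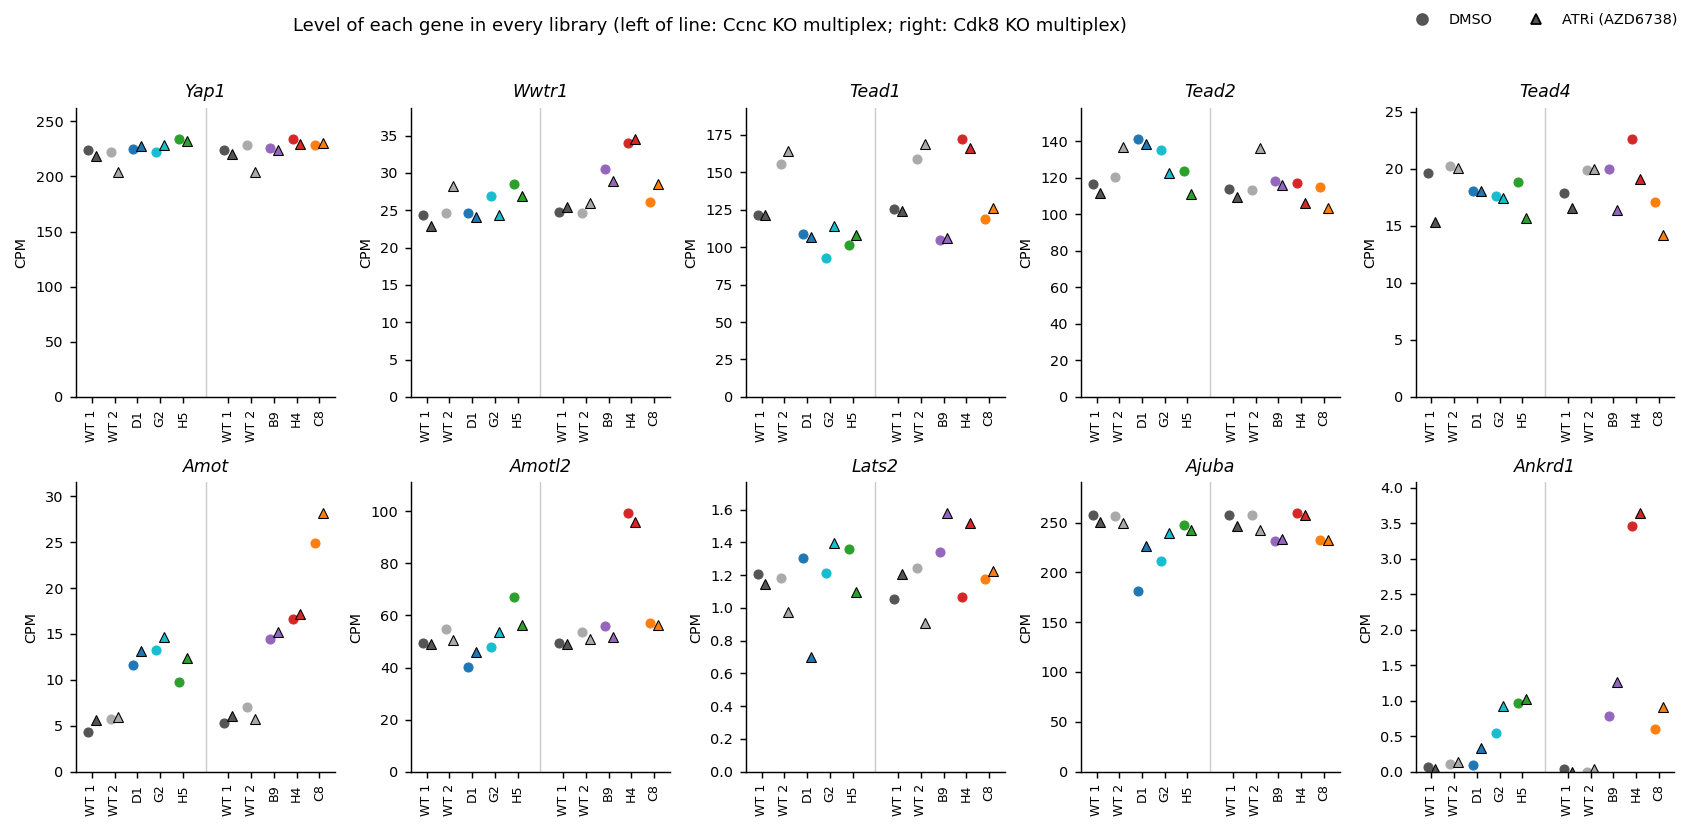
CPM of each of the 10 genes in every library, on linear axes that start at 0, with circles for DMSO and triangles for ATRi; the WT replicates and clones of the *Ccnc* multiplex stand left of the line and those of the *Cdk8* multiplex right of it. *Yap1* lies between 204 and 234 CPM in every library, the *Amot* values of both knockouts lie above those of WT, and *Ankrd1*, *Amotl2* and *Wwtr1* are highest in clone H4.

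*Yap1* (chr9:7931999-8004596), which encodes the coactivator YAP, was the steadiest member. It measured 204 to 234 CPM over the 10 libraries of either multiplex. The lowest value of either set was WT replicate 2 under ATRi, the library left out of the tests. The knockout differed from WT by a log2 fold change of 0.05 (SE 0.05) in *Ccnc* KO and 0.03 (SE 0.04) in *Cdk8* KO cells. Each clone under DMSO lay between 0.997 and 1.05 times the WT mean.

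*Wwtr1* (chr3:57455649-57575910), which encodes the YAP paralogue TAZ, had higher values in *Cdk8* KO libraries. WT cells sequenced with them had 24.7 CPM in both replicates under DMSO and 25.4 and 25.9 CPM under ATRi. The clones B9, H4 and C8 had 30.5, 33.97 and 26.2 CPM under DMSO and 29.0, 34.6 and 28.5 CPM under ATRi. All 6 knockout values lay above all 4 WT values, and both H4 values were the highest. The log2 fold change was 0.28 (SE 0.09) in *Cdk8* KO, or 0.19 (SE 0.07) without H4, and 0.13 (SE 0.07) in *Ccnc* KO cells, where the groups overlapped, and *Wwtr1* did not pass the call rule in either.

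*Tead1* (chr7:112679318-112906807), a TEAD factor found in most cell types, split the WT replicates and the *Cdk8* KO clones. In the *Ccnc* multiplex WT replicate 1 had 121 CPM under both treatments, and WT replicate 2 had 155 CPM under DMSO and 165 CPM under ATRi. The clones D1, G2 and H5 had 109, 92.8 and 102 CPM under DMSO and 107, 114 and 108 CPM under ATRi. Every *Ccnc* KO value thus lay below every WT value, with a log2 fold change of -0.33 (SE 0.08). Without WT replicate 2 the log2 fold change was -0.21, and without WT replicate 1 it was -0.62, and the WT replicates themselves differed by 0.36 on the log2 scale under DMSO.

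Sequenced with the *Cdk8* KO clones, *Tead1* measured 125 and 159 CPM in the WT replicates under DMSO, and 105 (B9), 172 (H4) and 119 CPM (C8) in the clones. Under DMSO H4 thus lay above both WT replicates, and B9 and C8 lay below both. The log2 fold change over the clones was -0.03 (SE 0.18), or -0.25 (SE 0.10) without H4. *Tead2* (chr7:45215753-45233644), a TEAD gene prominent in early embryonic cells, ranged from 111 to 141 CPM among *Ccnc* KO and WT libraries and from 103 to 136 CPM among *Cdk8* KO and WT libraries. Its log2 fold change was 0.17 (SE 0.07) in *Ccnc* KO and 0.02 (SE 0.05) in *Cdk8* KO cells. *Tead4* (chr6:128224288-128300823), the TEAD factor of the trophectoderm, ranged from 15.3 to 20.3 CPM and from 14.2 to 22.6 CPM in these multiplexes. It showed log2 fold changes of -0.02 (SE 0.08) and 0.05 (SE 0.11). Neither *Tead2* nor *Tead4* had groups that separated by genotype.

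*Amot* (chrX:145446425-145505181), the gene of the scaffold angiomotin, was higher in all 6 clones. In the *Ccnc* multiplex WT cells had 4.35 and 5.77 CPM under DMSO and 5.59 and 5.94 CPM under ATRi. The *Ccnc* KO clones D1, G2 and H5 had 11.6, 13.3 and 9.74 CPM under DMSO and 13.1, 14.6 and 12.4 CPM under ATRi. The lowest knockout value exceeded the highest WT value, and the log2 fold change was 1.22 (SE 0.12), a 2.33-fold difference.

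With the *Cdk8* KO clones, *Amot* measured 5.34 and 7.02 CPM in WT under DMSO and 6.08 and 5.78 CPM in WT under ATRi. Clones B9, H4 and C8 had 14.5, 16.6 and 24.9 CPM under DMSO and 15.3, 17.2 and 28.1 CPM under ATRi. The groups did not overlap here either, C8 was the highest clone, and the log2 fold change was 1.65 (SE 0.24), or 3.14-fold. Over all alternative fits the log2 fold change stayed between 1.00 and 1.33 in *Ccnc* KO and between 1.36 and 1.81 in *Cdk8* KO cells. The WT DMSO libraries of *Amot* differed between their own resequencing in the 2 multiplexes by 0.29 and 0.28 on the log2 scale.

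*Amotl2* (chr9:102716672-102733418), a related scaffold that is itself a YAP target in many cells, was high in a single clone. WT libraries of the *Cdk8* multiplex had 49.4 and 53.8 CPM under DMSO and 48.9 and 50.9 CPM under ATRi. Clone H4 had 99.2 CPM under DMSO and 95.9 CPM under ATRi, whereas B9 (56.1 and 51.8 CPM) and C8 (57.1 and 56.4 CPM) stayed close to WT. The log2 fold change was 0.46 (SE 0.23) over the 3 clones and 0.14 without H4. In *Ccnc* KO clones under DMSO the values were 40.4 (D1), 47.9 (G2) and 67.0 CPM (H5), on both sides of the 49.6 and 55.0 CPM of WT, with a log2 fold change of 0.03 (SE 0.12).

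*Lats2* (chr14:57689662-57758388), which encodes a LATS kinase, had only 25 to 81 counts in any library, or 0.702 to 1.58 CPM. Of its 6971 exonic bases, 2955 are also annotated to *Gm49361* on the same strand, so its counts are uncertain. The groups overlapped in both multiplexes, with log2 fold changes of 0.04 (SE 0.21) and 0.14 (SE 0.17). Per depth it was 1.03 times as frequent in *Ccnc* KO as in WT (exact 95% interval 0.842 to 1.25) and 1.16 times in *Cdk8* KO (0.956 to 1.43), by counting error only. *Lats1*, the other LATS gene, was lower still, with 3 to 18 counts per library, and its fitted log2 fold changes had errors of 0.38 and 0.40 (SE).

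*Ajuba* (chr14:54567472-54577558) had somewhat lower values in *Ccnc* KO clones. WT cells of the *Ccnc* multiplex had 258 and 257 CPM under DMSO and 250 and 249 CPM under ATRi. D1, G2 and H5 had 181, 211 and 247 CPM under DMSO and 226, 240 and 243 CPM under ATRi. All knockout values were below all WT values, although H5 under DMSO (247 CPM) came close to the lowest WT library (249 CPM), and the log2 fold change was -0.20 (SE 0.08). Among *Cdk8* KO clones H4 (259 and 258 CPM) lay just above the 243 to 258 CPM of WT, B9 and C8 had 231 to 234 CPM, and the log2 fold change was -0.07 (SE 0.05), or -0.12 (SE 0.04) without H4.

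*Ankrd1* (chr19:36111961-36120099), a muscle ankyrin-repeat protein gene that is a standard readout of YAP and TEAD activity, was the member with the largest difference. In the *Ccnc* multiplex it had 3 and 4 counts in WT under DMSO and 2 and 5 counts in WT under ATRi. D1, G2 and H5 had 3, 20 and 48 counts under DMSO and 12, 40 and 44 counts under ATRi. D1 under DMSO overlapped WT, and the other 5 knockout libraries lay above it.

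Summed over libraries and divided by depth, *Ankrd1* was 10.3 times as frequent in *Ccnc* KO as in the 3 WT libraries tested (exact 95% interval 5.32 to 23.0, from 167 and 9 counts). By clone the ratio was 3.21 in D1 (1.32 to 8.33), 11.3 in G2 (5.55 to 25.8) and 15.0 in H5 (7.55 to 33.8). These intervals cover counting error only, and those of D1 and H5 overlap only from 7.55 to 8.33.

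Next to the *Cdk8* KO clones, *Ankrd1* had 2 and 0 counts in WT under DMSO and 0 and 1 counts in WT under ATRi. B9, H4 and C8 had 38, 133 and 19 counts under DMSO and 61, 165 and 60 counts under ATRi, all above every WT library. The ratio of frequencies was 105 (exact 95% interval 29.0 to 871, from 476 and 2 counts), wide because so few WT reads were seen. H4 held 298 of the 476 counts and reached 3.47 and 3.64 CPM, against 0.605 to 1.27 CPM in B9 and C8. Taken alone, the other clones had ratios of 62.6 in B9 (16.9 to 524) and 49.2 in C8 (13.2 to 413). The fitted log2 fold changes, 3.18 (SE 0.69) in *Ccnc* KO and 6.49 (SE 1.22) in *Cdk8* KO cells, rest on the same few WT counts, and without H4 the latter was 5.44 (SE 0.61).

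**Figure D2:**
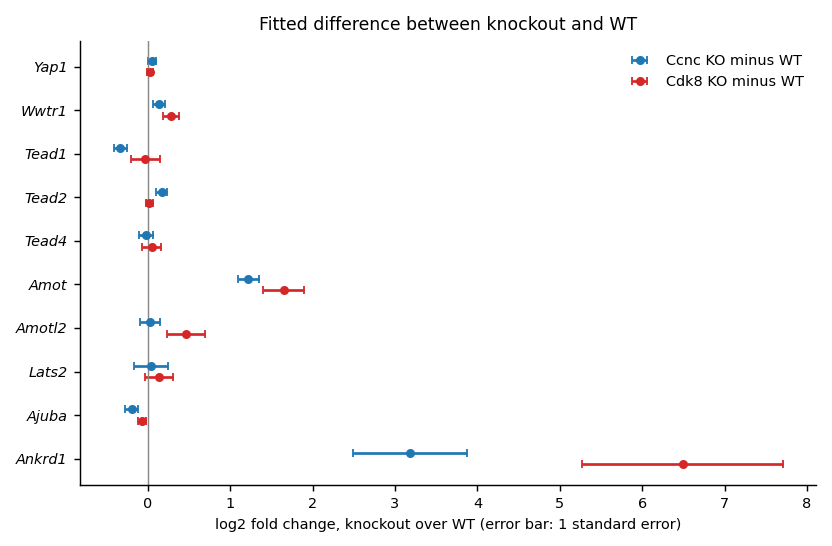
Fitted log2 fold change of each gene, knockout over WT, on the horizontal axis, for *Ccnc* KO (blue) and *Cdk8* KO (red), with bars of 1 standard error. *Ankrd1* (3.18 and 6.49) and *Amot* (1.22 and 1.65) stand to the right, and the other 8 genes lie between -0.33 and 0.46.

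By the call rule of the genotype contrast, an adjusted p under 0.05, 2 of the 10 members were higher in *Ccnc* KO cells (*Amot* and *Ankrd1*; 7.01% of the 18577 genes tested were called higher) and *Tead1* was lower (5.28% of genes). Both *Amot* and *Ankrd1* also differed by more than 2-fold, as 1.62% of genes did upwards. In *Cdk8* KO cells the same 2 members were higher (2.28% of the 18721 genes tested, and 0.908% with over 2-fold), and no member was lower (2.03%). All knockout libraries lay above the WT libraries for *Amot* in *Ccnc* KO (7.53% of genes) and for *Wwtr1*, *Amot* and *Ankrd1* in *Cdk8* KO (6.59%). They lay below for *Tead1* and *Ajuba* in *Ccnc* KO (6.93%) and for no member in *Cdk8* KO (6.07%). The median log2 fold change of the members was 0.04 in *Ccnc* KO and 0.09 in *Cdk8* KO, beside 0.00 and 0.01 over all genes tested. Since the members were chosen with this contrast known, these counts describe them and nothing more is read from them. The *Ankrd1* call was lost in both knockouts without WT replicate 1, with the clone as a random block and with DMSO libraries alone, and in *Cdk8* KO also without WT replicate 2. Its log2 fold changes with the random block were 2.84 (SE 0.92) and 5.91 (SE 1.92). The *Tead1* call in *Ccnc* KO was lost without WT replicate 2 and with DMSO libraries alone. The *Amot* call in *Cdk8* KO was lost with DMSO libraries alone and without WT replicate 1, which leaves a single WT replicate.

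Both H4 libraries were the highest of the *Cdk8* multiplex for *Wwtr1*, *Amotl2*, *Ajuba* and *Ankrd1*, 4 of the 10 members, where 12.6% of all genes tested showed this. *Tead3*, the remaining TEAD gene, had 359 and 354 counts in H4 (9.36 and 7.80 CPM), and no other library of that multiplex reached its values. Trophectoderm markers (*Cdx2*, *Eomes*, *Elf5*, *Gata3*, *Hand1*, *Krt8* and *Krt18*) summed to 247 and 257 CPM in H4, against 36.9 to 63.3 CPM in B9 and C8 and 19.5 to 30.1 CPM in WT. The markers did not move as a set. Both H4 libraries were the highest for 4 of the 6 tested there (*Gata3*, *Hand1*, *Krt8* and *Krt18*), beside 12.6% of all genes, and not for *Cdx2* or *Eomes*. In *Ccnc* KO they summed to 40.6 to 66.8 CPM, against 19.8 to 29.0 CPM in WT. In *Ccnc* KO 4 of 7 were called higher (7.01% of all genes), and in *Cdk8* KO 1 of 6 (2.28% of all genes). Fibroblast markers (*Col1a1*, *Col1a2*, *Col3a1*, *Thy1*, *Dcn* and *Lum*) summed to 19.6 and 23.0 CPM in H4, 7.16 to 8.75 CPM in B9 and C8 and 3.89 to 5.56 CPM in WT, with *Lum* at 0 in all WT libraries. Both H4 libraries were the highest for 4 of the 5 tested there, beside the same 12.6% of genes, and not for *Thy1*. In *Ccnc* KO they summed to 6.48 to 11.1 CPM, with *Lum* at 0 in every library. By edgeR 0 of the 3 fibroblast genes tested in *Ccnc* KO and 0 of 5 in *Cdk8* KO were called, and 3 in each had an unadjusted p under 0.05. The part of such cells in the values of H4 was not tested. In bulk RNA a larger share of a cell type and more RNA per cell cannot be told apart.

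Primitive endoderm markers (*Gata4*, *Gata6*, *Sox17*, *Sox7*, *Pdgfra* and *Foxa2*) summed to 24.0 to 31.0 CPM in *Ccnc* KO, against 10.1 to 16.6 CPM in WT of that multiplex. In *Cdk8* KO they summed to 25.6 to 47.3 CPM, against 10.4 to 16.0 CPM in WT. By the same rule (edgeR adjusted p) 5 of 6 were called higher in *Ccnc* KO (7.01% of all genes) and 6 of 6 in *Cdk8* KO (2.28% of all genes). H4 had the lowest sums of the *Cdk8* KO clones, 25.6 and 26.1 CPM, whereas it was the highest clone for *Ankrd1* and *Amotl2*. *Amot* was highest in C8 and lowest in B9. The median log2 difference of these markers from WT under DMSO was 1.77 in C8, 1.46 in B9 and 1.41 in H4. The part of primitive endoderm cells in the members' values was not tested.

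Few further genes of the pathway were called. Of 26 listed upstream and partner genes, among them the kinases *Stk3* and *Stk4*, the adaptors *Sav1*, *Mob1a* and *Mob1b*, and the tumour suppressor *Nf2*, 23 passed the filter and *Fat4*, *Vgll1* and *Vgll2* did not. In *Ccnc* KO cells 0 of these 23 were called by edgeR, beside 7.01% of all genes called higher and 5.28% lower, and 8 had an unadjusted p under 0.05. DESeq2 called 2, edgeR called 3 without D1, and it called 2 without WT replicate 2. Their log2 fold changes ran from -0.43 to 0.34 with a median of -0.07. In *Cdk8* KO cells the only call was *Nf2*, which encodes Merlin, an activator of LATS (2.03% of all genes were called lower). Under DMSO it had 234 and 240 CPM in WT and 209 to 213 CPM in the clones. Under ATRi it had 240 and 205 CPM in WT and 206 to 225 CPM in the clones. WT replicate 2 under ATRi, left out of the tests, thus lay below every clone. The fitted fall was 0.16 on the log2 scale (SE 0.04, edgeR adjusted p = 0.0484). This call was lost without H4 (edgeR adjusted p = 0.0573), without any other clone or WT replicate, and with the replicate block. *Lats1* had log2 fold changes of -0.24 (SE 0.38, edgeR adjusted p = 0.734) and -0.23 (SE 0.40, edgeR adjusted p = 0.789), and *Tead3* of -0.12 (SE 0.13, edgeR adjusted p = 0.615) and 0.32 (SE 0.41, edgeR adjusted p = 0.701) in *Ccnc* KO and *Cdk8* KO cells. Without H4 the *Tead3* value in *Cdk8* KO turned to -0.32 (SE 0.15, edgeR adjusted p = 0.251).

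Most further target genes of YAP and TAZ had positive log2 fold changes, and few were called. The list was chosen with earlier results of these data known, so its counts and p-values describe these genes. Of 18 listed targets, 16 were tested in *Ccnc* KO cells, of which 4 were higher and 0 lower, beside the 7.01% of all genes called higher. Their median log2 fold change was 0.24, beside 0.00 over all genes tested, and 13 of the 16 were above 0. In *Cdk8* KO cells 17 were tested, of which 2 were higher and 0 lower, beside 2.28% of all genes. The median there was 0.71, beside 0.01 over all genes tested, and 15 of the 17 were above 0. The clones differed, with median log2 differences from WT under DMSO of 0.96 in H4, 0.44 in C8 and 0.14 in B9. The 4 calls in *Ccnc* KO went to 0 without WT replicate 1, and the 2 calls in *Cdk8* KO became 5 without H4, 8 without B9, and 0 without C8, without either WT replicate, or with the clone as a random replicate block.

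*Foxf2*, a forkhead transcription factor gene, was called in both knockouts on few reads. In the *Ccnc* multiplex it had 3 and 2 counts in WT under DMSO, 3 and 4 in WT under ATRi, and 10 to 17 in the clones. It was 5.37 times as frequent in *Ccnc* KO (exact 95% interval 2.59 to 12.9; log2 fold change 2.40, SE 0.44, edgeR adjusted p = 0.00226). With the *Cdk8* KO clones it had 1 to 4 counts in WT and 9 to 33 in the clones, a ratio of 6.74 (3.31 to 16.0; log2 fold change 2.61, SE 0.54, edgeR adjusted p = 0.0286). No clone overlapped WT for *Foxf2* in either set. With DMSO libraries alone *Foxf2* was called in *Ccnc* KO (edgeR adjusted p = 0.0373) and not in *Cdk8* KO (edgeR adjusted p = 0.305). *Nuak2*, a kinase gene, rose by a log2 fold change of 0.49 (SE 0.14, edgeR adjusted p = 0.0356) in *Ccnc* KO and 0.64 (SE 0.14, edgeR adjusted p = 0.0368) in *Cdk8* KO cells. Its groups overlapped in the *Ccnc* multiplex, with 3.43 CPM in D1 under ATRi against 3.44 and 4.25 CPM in WT under ATRi. With DMSO libraries alone neither *Nuak2* call remained (edgeR adjusted p = 0.0810 and 0.312).

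*Ccn1*, which encodes the matricellular protein CYR61, was called in *Ccnc* KO and was highest in H4. WT cells of the *Ccnc* multiplex had 10.4 and 14.7 CPM under DMSO, and D1, G2 and H5 had 18.6, 20.4 and 32.7 CPM. Under ATRi WT had 10.6 and 18.9 CPM and these clones 17.2, 21.5 and 33.6 CPM. WT replicate 2 under ATRi, left out of the tests, thus lay above both D1 libraries. The log2 fold change in *Ccnc* KO was 1.04 (SE 0.21, edgeR adjusted p = 0.00516). With DMSO libraries alone it was 0.96 and not called (SE 0.24, edgeR adjusted p = 0.0584). Beside the *Cdk8* KO clones, WT had 10.7 and 13.3 CPM under DMSO, and B9, H4 and C8 had 18.1, 84.6 and 27.4 CPM. The clones spread so widely that the log2 fold change of 2.03 (SE 0.62) was not called (edgeR adjusted p = 0.0955), and without H4 it was 1.10 (SE 0.19, edgeR adjusted p = 0.00847). *F3*, the tissue factor gene, was also called in *Ccnc* KO, with a log2 fold change of 0.57 (SE 0.12, edgeR adjusted p = 0.00522). D1 under ATRi had 5.39 CPM of *F3*, below the 6.64 CPM of WT replicate 2 under ATRi.

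*Ccn2*, which encodes connective tissue growth factor, was not called in either knockout. It had 29.9 and 34.3 CPM in WT under DMSO in the *Ccnc* multiplex, and 33.3, 31.5 and 51.9 CPM in D1, G2 and H5. For *Cdk8* KO the values were 30.5 and 34.7 CPM in WT and 29.8, 161 and 64.5 CPM in B9, H4 and C8. The log2 fold changes were 0.36 (SE 0.16, edgeR adjusted p = 0.171) and 1.42 (SE 0.61, edgeR adjusted p = 0.212), the latter 0.54 without H4 (SE 0.28, edgeR adjusted p = 0.301). B9, which had 38 *Ankrd1* counts under DMSO against 2 and 0 in WT, thus did not exceed WT for *Ccn2*, and C8 exceeded it for both. Both H4 libraries were the highest of their multiplex for 11 of the 17 tested targets, again beside 12.6% of all genes. Under DMSO the median difference of the targets from WT was 0.96 on the log2 scale in H4, 0.44 in C8 and 0.14 in B9, and 0.19, 0.02 and 0.25 in D1, G2 and H5.

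**Figure D3:**
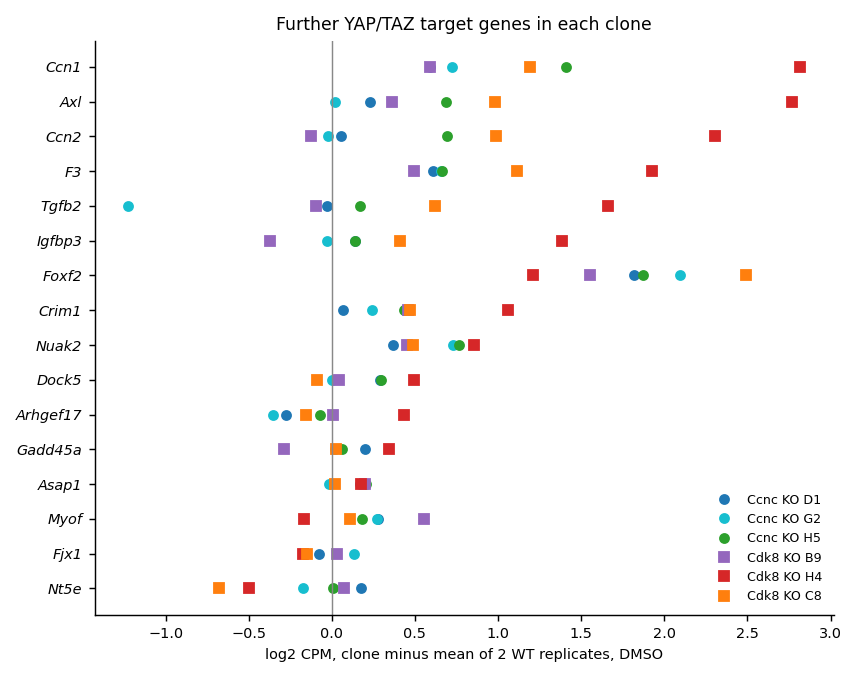
Difference in log2 CPM between each clone and the mean of the 2 WT replicates, all under DMSO, for the 16 further target genes tested in both multiplexes, ordered by their value in H4. H4 (red squares) lies farthest right for *Ccn1*, *Axl*, *Ccn2*, *F3*, *Tgfb2*, *Igfbp3*, *Crim1*, *Nuak2*, *Dock5*, *Arhgef17* and *Gadd45a*. For *Foxf2* all 6 clones lie above 1 and C8 is the highest.

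Genes of the actin cytoskeleton that respond to SRF, the factor of actin dynamics, were listed because they often change with YAP targets. Of 12 listed, 11 were tested in *Ccnc* KO cells, and 6 were higher and 0 lower, beside 7.01% and 5.28% of all genes. This list was chosen with earlier results of these data known, so its counts and p-values describe its genes. Without WT replicate 1, which leaves a single WT library, the *Acta2* log2 fold change was 3.57. The 11 genes tested had a median log2 fold change of 0.55. The largest were *Acta2* (3.72, SE 0.32, edgeR adjusted p = 4.8e-06), *Acta1* (3.06, SE 0.59, edgeR adjusted p = 0.00343) and *Tagln* (1.74, SE 0.25, edgeR adjusted p = 0.000496). In *Cdk8* KO cells 0 of 12 were called by edgeR, beside 2.28% of all genes called higher, and 6 had an unadjusted p under 0.05. DESeq2 called 4, while edgeR called 6 without B9 and 1 without H4. With all clones the median log2 fold change was 1.43, and *Acta2* was at 5.56 (SE 1.55, edgeR adjusted p = 0.0731). Without H4 *Acta2* was called, at 3.77 (SE 0.95, edgeR adjusted p = 0.0391). Both H4 libraries were the highest for 11 of these 12 genes. The summed level of the 12 genes was 2212 and 2423 CPM in H4, 1061 to 1360 CPM in B9 and C8 and 994 to 1153 CPM in WT.

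By the profile over the 10 libraries of each multiplex, the genes most like *Ankrd1* among 17455 were *Htra1* (mean Pearson r 0.953), *Cemip* (r 0.963 and 0.938 in the 2 multiplexes) and *Anxa6* (0.946). Those most like *Amot* were *Nxf7* (0.983), *Adora1* (0.980) and *Podxl* (0.975). Those most like *Yap1* were *Bach1* (0.930), *Gm15428* (0.929) and *Fkbp9* (0.927), although *Yap1* itself varied by only 3.71% and 3.70% (coefficient of variation). These values describe likeness across libraries that share genotype, clone and run, and no p is attached to them.

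The ATRi contrast was not used to choose the members, and here 0 of the 10 were called in either multiplex by the edgeR test beside genotype. Of all genes, 1.11% were called with *Ccnc* KO and 0.0855% with *Cdk8* KO. At an unadjusted p under 0.05 there was 1 member in each, *Tead4* both times, and DESeq2 called none. The log2 fold changes of the members under ATRi ran from -0.20 to 0.34 with *Ccnc* KO and from -0.24 to 0.21 with *Cdk8* KO. *Yap1* differed by 0.00 (SE 0.05, edgeR adjusted p = 0.995) and -0.02 (SE 0.03, edgeR adjusted p = 0.907), neither larger than its error.

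*Tead4* was lower under ATRi in the *Cdk8* multiplex when each clone was compared with itself. From DMSO to ATRi it went from 20.0 to 16.4 CPM in B9, from 22.6 to 19.1 CPM in H4, from 17.1 to 14.2 CPM in C8 and from 17.9 to 16.5 CPM in WT replicate 1. WT replicate 2 had 19.9 CPM under both. With the clone as a block the log2 fold change was -0.23 (SE 0.05, edgeR adjusted p = 0.0146, lower in 4 of 4 pairs), and 11.3% of all genes were called in that fit. Without the block it was -0.24 (SE 0.11, edgeR adjusted p = 0.428), and with the block and WT replicate 2 under ATRi kept it was -0.18 (SE 0.06, edgeR adjusted p = 0.132).

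In the *Ccnc* multiplex *Tead4* went from 19.6 to 15.3 CPM in WT replicate 1 and from 18.9 to 15.7 CPM in H5, whereas D1 (18.1 and 18.1 CPM) and G2 (17.6 and 17.4 CPM) did not move. The blocked log2 fold change there was -0.16 (SE 0.08, edgeR adjusted p = 0.300), with 2.43% of all genes and 0 members called. The same WT replicate 1 library under DMSO gave 19.6 CPM in this multiplex and 17.9 CPM in the other.

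The targets *Ccn1* and *Ccn2* rose under ATRi within the *Cdk8* multiplex by the blocked fit. *Ccn1* rose by a log2 fold change of 0.26 (SE 0.05, edgeR adjusted p = 0.00636), from 18.1 to 22.3 CPM in B9, 84.6 to 107 CPM in H4 and 27.4 to 33.7 CPM in C8, with 10.7 CPM under both treatments in WT replicate 1. WT replicate 2, whose ATRi library was not in this fit, went from 13.3 to 17.9 CPM, a larger log2 difference (0.42) than in any of the 3 clones (0.30 to 0.34). *Ccn2* rose by 0.24 (SE 0.04, edgeR adjusted p = 0.00168), from 29.8 to 33.0 CPM in B9, 161 to 202 CPM in H4, 64.5 to 74.2 CPM in C8 and 30.5 to 36.6 CPM in WT replicate 1, with 34.7 and 35.6 CPM in WT replicate 2. Of the 17 targets tested in that fit, 4 were higher and 2 lower, beside 11.3% of all genes called in either direction. Without the block 0 of the 17 were called by edgeR and 1 had an unadjusted p under 0.05. With WT replicate 2 under ATRi kept, *Ccn1* remained called (0.28, SE 0.06, edgeR adjusted p = 0.0474) and *Ccn2* did not (0.20, SE 0.05, edgeR adjusted p = 0.0665). In the *Ccnc* multiplex the blocked values were 0.01 (SE 0.07, edgeR adjusted p = 0.964) for *Ccn1* and 0.21 (SE 0.06, edgeR adjusted p = 0.0868) for *Ccn2*, and no target was called. Of the 23 upstream and partner genes, 0 were called without the block in either set (4 and 1 had an unadjusted p under 0.05), and *Stk3* and *Ptpn14* were lower in the *Cdk8* multiplex with it.

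**Figure D4:**
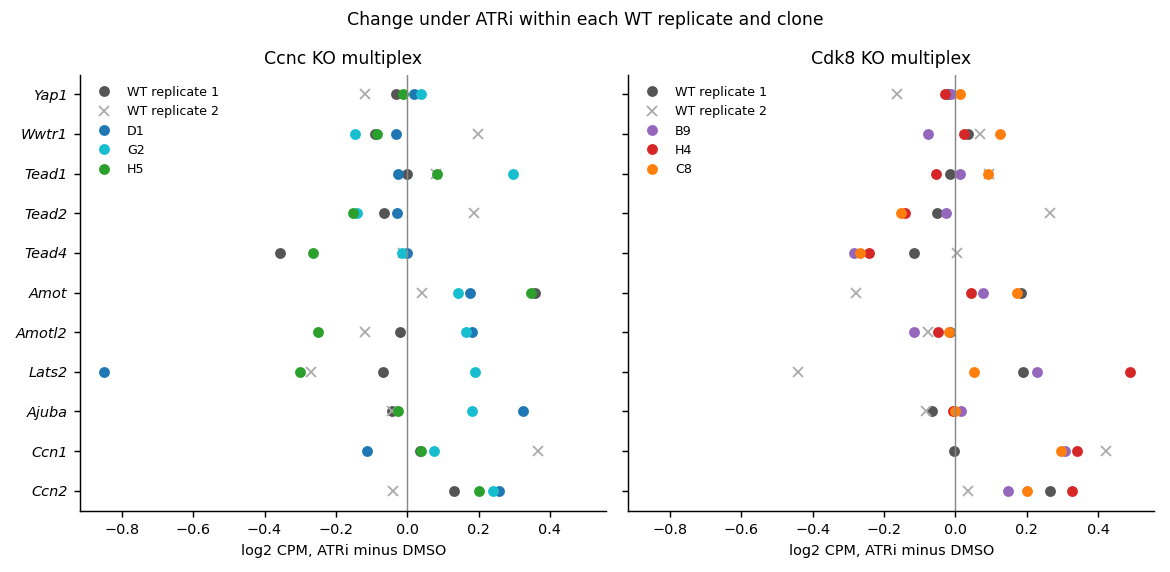
Change in log2 CPM from DMSO to ATRi within each WT replicate and clone, for 9 members and for *Ccn1* and *Ccn2*; crosses mark WT replicate 2, whose ATRi library was left out of the tests, and *Ankrd1* is omitted for its few WT counts. In the *Cdk8* multiplex the 3 clones sit close together for *Tead4* (-0.28 to -0.24) and *Ccn1* (0.30 to 0.34), and *Lats2*, with its low counts, scatters most.

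Whether ATRi acted differently in knockout and WT cells was tested by the interaction, with 1 WT library left under ATRi. No member was called in either knockout, 0 had an unadjusted p under 0.05, and 0% of all genes were called (395 and 255 genes had an unadjusted p under 0.05 in *Ccnc* KO and *Cdk8* KO). The interaction of *Amot* was 0.06 (SE 0.26, edgeR adjusted p = 1.00) in *Ccnc* KO and 0.14 (SE 0.50, edgeR adjusted p = 1.00) in *Cdk8* KO, and *Tead1* in *Ccnc* KO had 0.29 (SE 0.16, unadjusted p = 0.0871 by edgeR). *Ankrd1* had interactions of 1.39 (SE 1.81) and 3.51 (SE 5.72), with errors larger than the values, so its response to ATRi in WT could not be compared at these counts. Within the clones *Ankrd1* had more CPM under ATRi than under DMSO in 6 of 6, from 0.0890 to 0.337 CPM in D1 to 3.47 to 3.64 CPM in H4, and the ATRi effect itself was 0.34 (SE 0.50, edgeR adjusted p = 0.779) and 0.19 (SE 0.67, edgeR adjusted p = 0.953) in the multiplexes.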

How the data were processed

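Poly(A) RNA was sequenced as stranded single-end reads. The authors trimmed reads (Trimmomatic 0.38), aligned them to GRCm38.p6 (HISAT2 2.1.0) and counted them per gene on the reverse strand (featureCounts 2.0.1, ignoring duplicates). The deposited counts are whole reads per gene and lane, not normalised. The rlog values deposited beside them were not used, and the study's model formula is not given in the sources used here. Lanes were summed per library. Library totals ran from 30899823 to 67274049 reads (median 41972557). Intervals and ratios cover counting error only.

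Each multiplex was fitted alone by the edgeR 4.0.16 quasi-likelihood test (R 4.3.3) on all genes kept by filterByExpr, with TMM scaling, genotype and treatment as terms, and Benjamini-Hochberg adjustment over all genes tested, calling adjusted p under 0.05. Genotype, ATRi and interaction were tested. Alternatives were DESeq2 1.42.0, limma 3.58.1 (voom with the clone as a random block), RLE scaling, no filter, DMSO libraries alone, the excluded WT library kept, clone as a block, and each replicate left out. A further one, the block with that WT library kept, was added after seeing the data. CPM used TMM-scaled totals, and log2 CPM a prior count of 2. The fits were tested on simulated data.

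The libraries of a clone come from the same cell line, so the clone pairs DMSO with ATRi. Deviations from the group means correlated between a clone's libraries by 0.207 (D1), 0.030 (G2), 0.217 (H5), 0.608 (B9), 0.682 (H4) and 0.209 (C8).

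Members and gene lists were chosen with earlier results of these data known. The genes named were the members, the targeted genes, *Lats1*, *Tead3*, *Ccn1*, *Ccn2*, up to 3 called genes per list, knockout and direction with the largest change, up to 3 actin genes, and the 3 genes most like *Ankrd1*, *Amot* and *Yap1*. *Stk3* and *Ptpn14*, the marker genes called, and the genes listed with the plot of targets were chosen after their values were seen. In the fits of both treatments without a clone block, the DMSO and ATRi libraries of a clone or WT replicate entered as separate samples. Those p-values measure the spread between libraries, not between clones, and the libraries of a clone are not independent.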

Additional observations from a re-analysis of the deposited data

How the results depend on the processing

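No called value changed sign under the alternatives run. Values that were not called did: 14 member values had the other sign in each of the genotype, ATRi and interaction contrasts, among them the log2 fold changes of *Tead1* in *Cdk8* KO (-0.28 to 0.11), *Amotl2* in *Ccnc* KO (-0.13 to 0.16) and *Tead4* in *Cdk8* KO (-0.06 to 0.14). Of 220 fold changes of members in the genotype contrast over the alternatives, 206 kept their side of the threshold, 11 lost it and 3 gained it; for ATRi 219 of 220 and for the interaction 180 of 180 kept it. Genes called in *Ccnc* KO against WT numbered 635 with DMSO libraries alone, and 289 to 2640 with 1 replicate left out. In *Cdk8* KO they numbered 1799 by DESeq2, 5 with DMSO libraries alone and 237 with the clone as a random block, and 1 to 1512 with 1 replicate left out. Members called in *Ccnc* KO were 1 with DMSO libraries alone and 2 to 5 with a replicate left out (5 without H5, which added *Ajuba* and *Tead2*). In *Cdk8* KO they were 0 with DMSO libraries alone, 1 with the random block, and 0 to 2 with a replicate left out. Genes called for ATRi in the *Ccnc* multiplex were 651 by DESeq2, 845 without the filter, 41 with the excluded WT library kept, 451 with the clone block, 46 with both, and 21 to 250 with a replicate left out. In the *Cdk8* multiplex they were 378 by DESeq2, 41 without the filter, 2107 with the clone block (1 member, *Tead4*), 485 with the block and the WT library, and 0 to 29 with a replicate left out. The interaction gave 20 genes in *Ccnc* KO without the filter and 4 in *Cdk8* KO with the clone block, and could not be fitted without WT replicate 1, since no WT library under ATRi is then left. The cause of these shifts was not tested. The clone block in the ATRi and interaction fits changed no other call of a member. With CPM scaled by library total, 32 member levels stayed within the replicate spread and 8 moved beyond it. *Ankrd1* and *Lats2* are limited by depth.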
